A study of Oryza sativa Indica Group with 12 samples.

Results

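The genes described here are rice homologues of transcripts known from maize sperm cells. They are the rice probe sets that the study's supplementary lists pair, by a BLASTx search, with an expressed sequence tag of a maize sperm cell library, leaving out those also listed as homologues of lily generative cell genes. There are 308 such genes of 338 maize sperm cell homologues, each measured by 1 probe set, among 57194 rice probe sets on the array. All 308 are on the array, and they stand for 308 different loci spread over the 12 rice chromosomes, from 8 on chromosome 11 to 50 on chromosome 1. The match to the maize tag had an e-value of 9e-106 to 9e-21, and 186 of the 308 had one of 1e-40 or less. The rule itself used no measured value of the rice anthers, but it was chosen with earlier results of these data known. A name could be given to 75 of the 308, and the others are called by their locus, in which the number after "Os" is the chromosome.

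The samples were anthers of wild-type, field-grown indica rice of the variety IR64 at 4 stages, with no treatment or transgene. PMA are anthers before meiosis (350 to 450 µm long), MA anthers in meiosis (500 to 850 µm), SCP anthers with single-celled pollen (900 to 950 µm) and TPA anthers with tri-nucleate pollen (2000 to 2500 µm). Each stage was measured with 3 biological replicates on the Affymetrix rice array, 12 arrays in all, each replicate holding bulked anthers of several plants. Whole anthers were used, so that a sample holds the wall layers and the tapetum beside the germ cells, and fewer cells of a type cannot be told apart from less RNA per cell.

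In flowering plants the haploid microspore divides unequally into a large vegetative cell, which later forms the pollen tube, and a small generative cell, which divides again to give the sperm cells. In the grasses this last division is over before the pollen is shed, so tri-nucleate pollen holds finished sperm cells inside the vegetative cell. Sperm cells carry little cytoplasm, and their transcripts are known to include, beside genes of gamete fusion, many genes of chromatin, protein turnover and general cell upkeep that other cells use as well. Transcripts of the vegetative cell are by far the more abundant in mature pollen, so an array of whole anthers does not say in which of the cells a gene was expressed.

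Values are GC-RMA signals on the linear scale, and a stage mean over 10 was taken as above background, which is the study's own limit. Levels are given as mean ± SD over the 3 replicates. A difference was called where limma's moderated test over all 12 arrays gave a p of 0.005 or less after Benjamini-Hochberg adjustment over all 57194 rice probe sets together with at least a 2-fold change of the mean log2 signal. Where all 3 arrays of the dimmer stage lie at or under 10, the fold is given as a lower bound against 10. Pearson correlations of log2 signals within a stage were 0.967 to 0.998 over all rice probe sets, and the lowest was between TPA arrays. A different person ran the MA arrays, and this cannot be told apart from the MA stage itself. Upper quartiles of all signals were 64.6 to 73.0 on TPA arrays and 99.4 to 115 on the arrays of the other stages. Shifting the arrays to a common median of the expressed probe sets therefore raised TPA by 0.50 on the log2 scale. It lowered PMA by 0.23, MA by 0.15 and SCP by 0.11. Its effect is named below for the main counts and for only part of the calls. Of the calls of named genes in TPA it lost 20 and gained 9, so a call without such a remark may also depend on it. Marker genes moved with the stage labels. The summed signal of 3 pollen genes (MST5, CPK29 and CPK6) was 15.4 to 15.6 on PMA arrays, 15.4 to 15.8 on MA arrays, 15.3 to 24.2 on SCP arrays and 17003 to 20930 on TPA arrays. The summed signal of 5 tapetum genes (TDR, OsC6, CYP703A3, CYP704B2 and PTC1) was 291 to 466 on PMA arrays, 15378 to 16255 on MA arrays, 106946 to 112871 on SCP arrays and 161 to 320 on TPA arrays. That of 3 meiocyte genes (DMC1, PAIR2 and MEL1) was 8129 to 9789 at PMA, 3976 to 4192 at MA, 145 to 379 at SCP and 77.0 to 124 at TPA, with MEL1 carrying the PMA sum (7716 at PMA and 57.1 at MA) and PAIR2 running the other way (621 at PMA and 3558 at MA). That of 2 genes of green tissue (CAB2R and OsrbcS) was 270 to 1072 at PMA, 1539 to 1615 at MA, 2513 to 7687 at SCP and 152 to 1020 at TPA. All 4 lists thus move with the stages that the homologues are compared over, and their part in the results was not tested. No defining marker of sperm cells could be paired with a probe set.

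The homologues were bright in every stage. Their median signal was 954 at PMA, 909 at MA, 968 at SCP and 867 at TPA, whereas the rice probe sets over 10 in at least 1 stage had medians of 114 at PMA, 106 at MA, 104 at SCP and 71.6 at TPA. In TPA 288 of the 308 lay over 10 (93.5%, against 41.4% of all rice probe sets), and 138 lay over 1000 (44.8%, against 7.20%). The numbers over 10 were alike in the other stages, with 291 at PMA, 288 at MA and 287 at SCP. In all 4 stages 279 of the 308 lay over 10, and in none of them 8. The medians of the homologues thus lay above those of the expressed probe sets in each of the 4 stages, and no test between the lists was made.

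**Figure D1:**
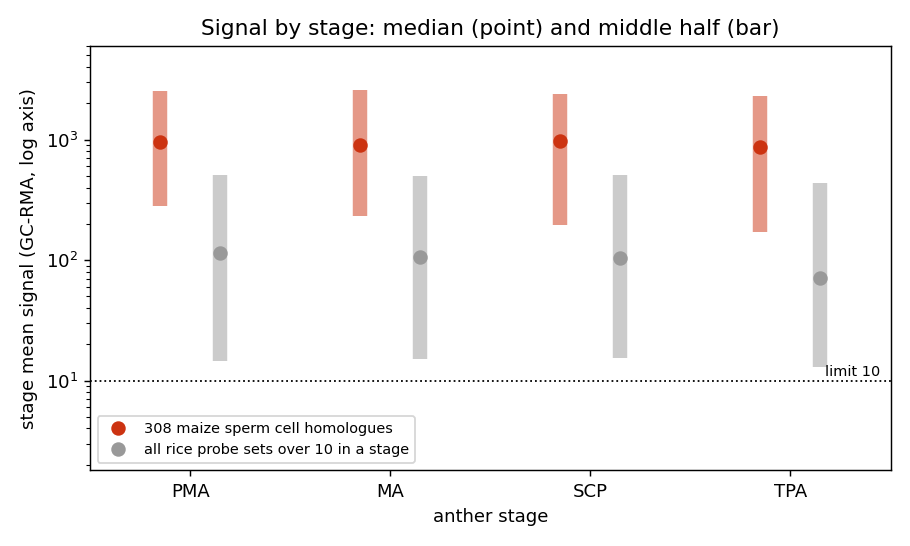
Stage mean signal on a log axis for the 308 homologues (red) and for all 28625 rice probe sets over 10 in at least 1 stage (grey), by anther stage. Points are medians, bars the interquartile range and the dotted line the background limit of 10. The medians of the homologues lie between 867 and 968 in the 4 stages, and those of the other list between 71.6 and 114.

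Most of the homologues changed over anther development, and they did so at the rate of expressed genes in general. Over the 4 stages 203 of the 308 were called by limma's moderated F-test with at least a 2-fold range (65.9%), where 31.9% of all rice probe sets were called. Of the rice probe sets over 10 in a stage 63.6% were called, close to the share of the homologues. The median range between the highest and the lowest stage was 1.51 on the log2 scale. In 82 of the 308 it stayed under 2-fold, and in 35 under 1.5-fold. Replicates differed less than stages did for most of these genes, with a median coefficient of variation of 12.2% at PMA, 4.48% at MA, 7.79% at SCP and 14.3% at TPA.

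The main change lay between TPA and everything before it, and it ran in both directions. In TPA 57 of the 308 were higher than in PMA (18.5%, against 8.59% of all rice probe sets) and 93 were lower (30.2%, against 16.0%). Relative to MA, 53 were higher in TPA (17.2%, against 8.26%) and 88 lower (28.6%, against 15.7%). Relative to SCP, 58 were higher in TPA (18.8%, against 8.22%) and 84 lower (27.3%, against 14.9%). Among the rice probe sets over 10 in a stage, 16.4 to 17.1% were higher and 29.9 to 32.0% lower in TPA in these 3 comparisons, so the homologues moved up and down about as often as other expressed genes. The 3 comparisons share the TPA arrays and are not independent of each other. The median log2 difference of the 308 was -0.32 for TPA minus PMA, -0.27 for TPA minus MA and -0.32 for TPA minus SCP, beside -0.33, -0.34 and -0.34 for the rice probe sets over 10 in a stage and 0.02, 0.03 and 0.04 for all rice probe sets. The excess of lower over higher genes depended on the scaling. With arrays shifted to a common median, 99 were higher and 59 lower in TPA than in PMA, 90 higher and 62 lower than in MA, and 85 higher and 51 lower than in SCP, and the medians turned to 0.41, 0.38 and 0.29.

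**Figure D2:**
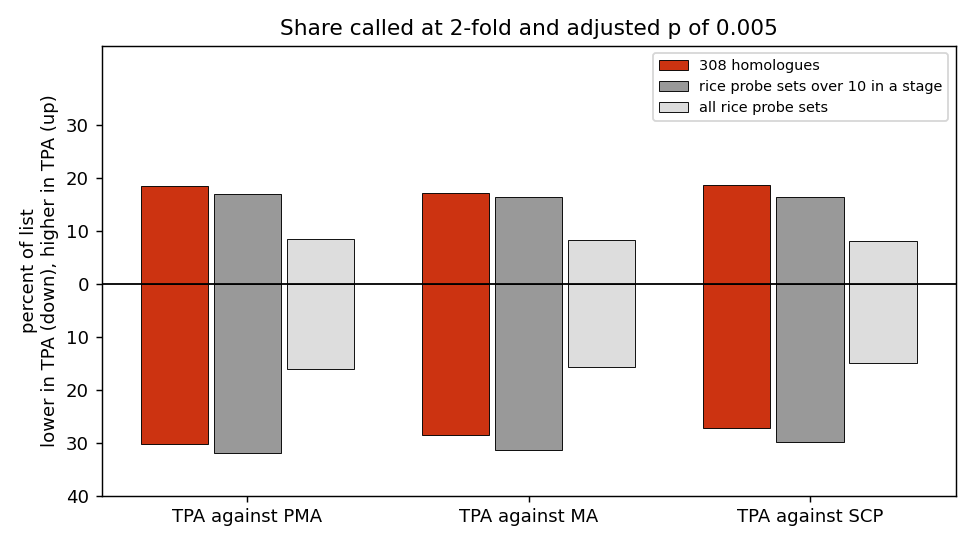
Percent of each list called higher in TPA (above the zero line) and lower in TPA (below it) than PMA, MA and SCP, for the 308 homologues (red), the rice probe sets over 10 in a stage (dark grey) and all rice probe sets (light grey). The red and dark grey bars are close in each comparison, for instance 18.5 and 17.1% higher and 30.2 and 32.0% lower in TPA than in PMA.

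Between the earlier stages few of these genes moved. In MA 15 of the 308 were higher than in PMA (4.87%, against 3.31% of all rice probe sets) and 17 were lower (5.52%, against 3.03%). The count of lower genes in MA rested on few arrays, and was 11 without PMA replicate 2, 9 without MA replicate 1, 10 without MA replicate 2 and 9 without MA replicate 3. In SCP 19 were higher than in MA (6.17%, against 3.86%) and 27 were lower (8.77%, against 4.47%). Among the rice probe sets over 10 in a stage, 6.61% were higher and 6.06% lower in MA than in PMA. In SCP 7.70% of them were higher and 8.93% lower than in MA. Of the 300 homologues over 10 in a stage, 5% were higher and 5.67% lower in MA than in PMA. In SCP 6.33% of these were higher and 9% lower than in MA. The share lower in SCP was thus about that of expressed genes, and the other shares lay somewhat below theirs. Median log2 differences were -0.03 for MA minus PMA and -0.10 for SCP minus MA.

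By peak stage, the 308 fell into a small set for each stage and a majority with no clear peak. A peak, meaning a mean at least 2-fold over each other stage in a gene called over the 4 stages, was found for 14 of the 308 at PMA, for 3 at MA, for 11 at SCP and for 35 at TPA, and 245 had none. In percent these are 4.55 at PMA, 0.974 at MA, 3.57 at SCP and 11.4 at TPA, beside 6.15, 3.76, 6.28 and 13.4 among the rice probe sets over 10 in a stage. Scaling to a common median left 11, 3 and 10 peaks in PMA, MA and SCP and gave 67 at TPA. A lowest stage by the same rule was TPA for 60 of the 308, PMA for 4, SCP for 4 and MA for 1. The share lowest in TPA was 19.5%, beside 11.1% of all rice probe sets and 22.2% of those over 10 in a stage. It was thus somewhat below that of expressed genes.

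In TPA 35 of the 308 were higher than in each of the other 3 stages (11.4%, against 6.31% of all rice probe sets and 12.6% of those over 10 in a stage), and 54 were lower than in each (17.5%, against 9.68% and 19.3%). The 35 are the genes with a peak in TPA. Scaling to a common median gave 67 and 33, and for all rice probe sets 6564 and 3629 in place of 3611 and 5534. The 35 had a median TPA signal of 2536 and ranged from 39.3 to 36258. The 54 had a median TPA signal of 219.5, and only 4 of them lay at or under 10 there. Most of these falls thus left a signal well above background. The smallest of a gene's 3 differences had a median of 2.08 on the log2 scale in the 35 and of 1.79 in the 54, and was 2 or more in 18 and 23 genes. A name is carried by 3 of the 35 and by 14 of the 54, beside 75 of all 308. Part of the names came from lists of genes changing over these stages, so these counts are partly set by the naming.

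A few genes were silent before TPA. By the study's limits, 6 of the 308 lay over 20 at TPA after 3 stages at or under 10 (1.95%, beside 2.38% of all rice probe sets and 4.76% of those over 10 in a stage). LOC_Os05g20570 was the brightest of all 308 at TPA. Its signals were 5.77, 5.80 and 5.84 at PMA, 6.77, 6.99 and 6.64 at MA, 5.72, 5.72 and 5.65 at SCP, and 36140, 35495 and 37138 at TPA. It was thus at the floor of the array in 9 arrays and among the brightest signals in the other 3, with TPA at least 3625-fold over each earlier stage (limma adjusted p of 1.9e-17 against PMA, 2.1e-17 against MA and 1.4e-17 against SCP). LOC_Os03g17030 was likewise flat before TPA, with 6.50, 6.61 and 6.90 at PMA, 6.58, 6.63 and 6.84 at MA and 6.70, 6.54 and 6.76 at SCP, and reached 9072, 9195 and 6900 at TPA, at least 832-fold higher (adjusted p of 1.7e-12, 1.6e-12 and 1.5e-12). LOC_Os05g50170 had 3587, 3403 and 4545 at TPA, after 14.6, 5.66 and 5.06 at PMA, 8.05, 7.56 and 5.71 at MA and 5.76, 6.39 and 5.62 at SCP. Its PMA replicate 1 was the only earlier array over 10, and TPA was at least 381-fold higher than MA and SCP (adjusted p of 6.1e-08 and 5.1e-08).

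The other genes of this kind were dimmer. LOC_Os03g44630 had 570, 567 and 639 at TPA and averaged 5.22 at PMA, 5.18 at MA and 5.15 at SCP, a step of at least 59.1-fold (adjusted p of 6.4e-13 against SCP). LOC_Os07g25690 reached 73.5, 34.9 and 59.7 at TPA. It averaged 5.73 ± 0.72 at PMA, 8.43 ± 2.26 at MA and 5.21 ± 0.35 at SCP. With the methods' t-test its calls against PMA and MA were lost (adjusted p of 5.3e-03 and 0.010). LOC_Os04g46790 reached only 29.4, 36.6 and 51.9 at TPA, at least 3.82-fold over each earlier stage (adjusted p of 3.1e-06 against SCP), with 5.78 ± 0.03 at PMA, 5.82 ± 0.04 at MA and 6.55 ± 0.86 at SCP. In all 6 genes no TPA array overlapped an array of another stage, which the rule that picked them largely sets.

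ADF1 (LOC_Os02g44470) was the named gene with the largest rise. It encodes an actin-depolymerising factor, one of the small proteins that sever and turn over actin filaments, on which pollen tube growth depends. Its signals were 14.6, 9.89 and 13.5 at PMA, 9.56 ± 0.40 at MA (mean and SD), 4.97, 5.34 and 4.90 at SCP, and 13313, 14178 and 14644 at TPA. TPA was 10.14 ± 0.12 higher than PMA on the log2 scale (SE, adjusted p of 1.5e-11) and at least 1403-fold higher than SCP (adjusted p of 5.3e-12). Its relative ADF2 (LOC_Os03g56790) was among the steadiest of the 308, with 4440, 3428 and 4833 at PMA, 4839, 4977 and 4474 at MA, 4422, 4333 and 4579 at SCP, and 3944, 3156 and 4608 at TPA. The arrays of its 4 stages overlapped. ADF2 was picked for its small range, so no comparison of TPA could be called (adjusted p of 0.52 against PMA, 0.13 against MA and 0.26 against SCP).

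CDKF;4 and PGI-B were the other named genes higher in TPA than in every other stage. CDKF;4 (LOC_Os02g47220), a kinase of the cyclin-dependent kinase family, was expressed throughout, with 1260, 1785 and 1516 at PMA, 1023, 1144 and 1105 at MA and 924, 1026 and 874 at SCP, and reached 9702, 11599 and 13350 at TPA. It was 7.61-fold higher in TPA than in PMA, 10.5-fold higher than in MA and 12.2-fold higher than in SCP (adjusted p of 2.6e-07, 1.1e-07 and 7.1e-08). Its probe set is also of the type that can detect related transcripts. PGI-B (LOC_Os06g14510) encodes a phosphoglucose isomerase, which interconverts the phosphates of glucose and fructose in glycolysis and sugar synthesis. It climbed in 2 steps, with 105, 88.5 and 116 at PMA, 684, 718 and 742 at MA, 730, 729 and 722 at SCP, and 5470, 5929 and 4713 at TPA. TPA was 52.2-fold over PMA and 7.35-fold over SCP (adjusted p of 2.6e-10 and 3.4e-08), while MA and SCP overlapped.

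Of the 12 largest rises, 5 more came from loci without a name that already had some signal before TPA. LOC_Os01g56230 had 5515, 6021 and 6206 at TPA and averaged 170 ± 46.5 at PMA, 51.7 ± 4.82 at MA and 60.0 ± 5.70 at SCP, a 98.7-fold rise over SCP (adjusted p of 6.7e-09). LOC_Os01g69030 averaged 12385 ± 836 at TPA and began to climb in SCP, with 715, 581 and 322 there, against 92.3 ± 6.65 at PMA and 103 ± 2.88 at MA. LOC_Os03g17790 was the least even of them in TPA, with 3842, 7248 and 1994, yet its lowest TPA array was still above the 3 SCP arrays of 210, 166 and 120. These genes share no name. Each stood above its earlier stages in every TPA array, which their choice by a large rise largely sets. LOC_Os09g10740 had 2533, 2819 and 4808 at TPA, and was 47.7-fold over SCP, where its arrays gave 109, 103 and 28.2 (adjusted p of 1.4e-05). LOC_Os01g09550 was dimmer, with 238, 246 and 438 at TPA against 48.9, 42.0 and 19.0 at SCP (8.69-fold, adjusted p of 4.7e-04). With the methods' t-test its calls against PMA and SCP were lost (adjusted p of 7.4e-03 and 0.011). That against SCP was also lost with only the compared stages fitted (8.0e-03). The same t-test lost the calls of LOC_Os03g17790 against PMA and SCP (0.0105 and 6.8e-03) and of LOC_Os09g10740 against SCP (6.4e-03).

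**Figure D3:**
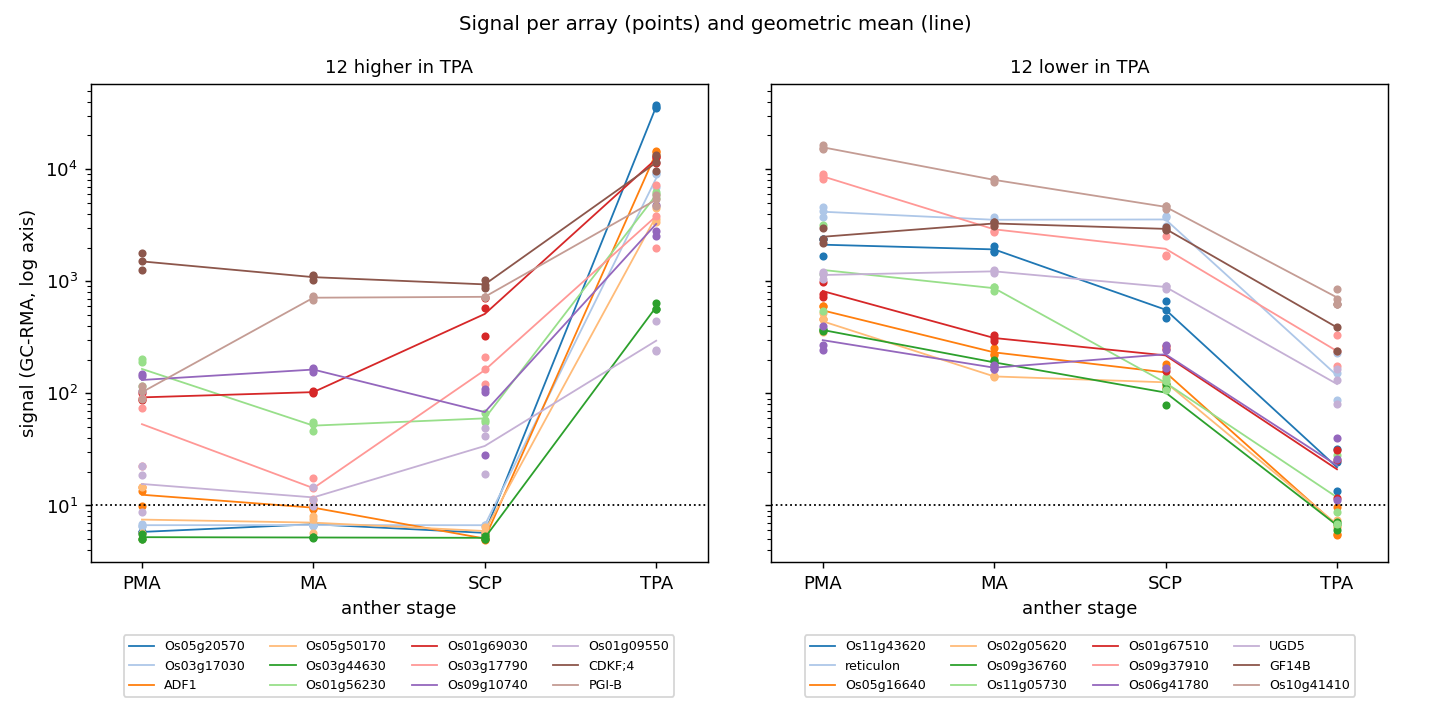
Signal on a log axis of the 12 homologues with the largest rise in TPA over each earlier stage (left) and the 12 with the largest fall (right), by anther stage. Points are arrays, lines join geometric means, and the dotted line is the background limit of 10. In the left panel every TPA point lies above all earlier points of its gene, and in the right panel every TPA point lies below them. The choice of genes by large changes largely sets this.

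Among the genes lower in TPA, LOC_Os11g43620 led. Its signals were 2363, 1678 and 2410 at PMA, 1883, 1845 and 2059 at MA, 467, 556 and 670 at SCP, and 32.0, 13.4 and 24.5 at TPA. The fall began in SCP and went on in TPA, which was 25.5-fold under SCP and 96.9-fold under PMA (adjusted p of 1.6e-06 and 1.3e-07). The reticulon gene (LOC_Os05g45050) behaved otherwise, holding one level until SCP. Reticulons bend the membrane of the endoplasmic reticulum into tubules. The gene had 3732, 4202 and 4648 at PMA, 3476, 3785 and 3372 at MA, 3813, 3776 and 3143 at SCP, and 230, 87.0 and 151 at TPA, 24.7-fold under SCP (adjusted p of 1.5e-06). Its probe set is of a type that can also detect related transcripts.

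Some genes went from a clear signal to the floor in TPA. LOC_Os05g16640 had 608, 596 and 459 at PMA, 225, 254 and 219 at MA, 172, 184 and 115 at SCP, and 5.47, 9.61 and 5.55 at TPA, at least 15.4-fold under SCP (adjusted p of 6.3e-07). LOC_Os02g05620 had 7.41, 6.46 and 6.52 at TPA and averaged 445 ± 84.3 at PMA, 142 ± 2.46 at MA and 126 ± 8.21 at SCP, a fall of at least 12.6-fold relative to SCP (adjusted p of 9.0e-09). LOC_Os09g36760 had 6.88, 6.01 and 7.15 at TPA, at least 10.2-fold under SCP (adjusted p of 3.4e-08), and stepped down stage by stage before, with 368 ± 7.87 at PMA, 189 ± 9.90 at MA and 103 ± 22.2 at SCP. In all 3 the TPA arrays lie at or under 10, so the true size of the fall is not known beyond these bounds.

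LOC_Os11g05730 had 8.70, 6.78 and 28.1 at TPA against 128, 108 and 139 at SCP, and was uneven in PMA, with 1169, 540 and 3190. Its fall relative to SCP (adjusted p of 2.5e-03) was no longer called when any 1 of PMA replicate 1, the MA, the SCP arrays or TPA replicates 1 and 2 was left out, with adjusted p of 5.0e-03 to 0.010. LOC_Os01g67510 fell 10.4-fold relative to SCP (25.7, 11.7 and 31.0 at TPA against 267, 247 and 158 at SCP). LOC_Os06g41780 fell 9.81-fold (25.9 ± 14.5 at TPA against 228 ± 52.8 at SCP). With the methods' t-test, and also with only the compared stages fitted, LOC_Os06g41780 lost all 3 calls (adjusted p of 6.9e-03 to 0.019). In the same 2 settings LOC_Os01g67510 lost its call against SCP (8.8e-03 and 5.5e-03). The bright loci kept a clear signal in TPA. LOC_Os10g41410 had 850, 691 and 630 at TPA, and its means stepped down from stage to stage, with 15708 at PMA, 8040 at MA and 4619 at SCP. LOC_Os09g37910 did likewise, with 237, 174 and 329 at TPA and means of 8650 at PMA, 2918 at MA and 1990 at SCP, on a probe set that may detect related transcripts.

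UGD5 and GF14B were also among the 12 largest falls. UGD5 (LOC_Os12g25700) encodes a UDP-glucose dehydrogenase, which makes the UDP-glucuronate used for cell wall polysaccharides. It had 1166, 1054 and 1200 at PMA, 1237, 1257 and 1190 at MA, 856, 907 and 910 at SCP, and 166, 81.0 and 132 at TPA, 7.35-fold under SCP (adjusted p of 4.5e-06). GF14B (LOC_Os04g38870) encodes a 14-3-3 protein, of a class that binds phosphorylated partners. It had 2396, 2184 and 2974 at PMA, 3105, 3363 and 3387 at MA, 2887, 2901 and 3023 at SCP, and 393, 238 and 624 at TPA, 7.57-fold under SCP (adjusted p of 3.3e-05). In both genes every TPA array lay below all earlier arrays, and in UGD5 the SCP arrays also lay below those of PMA and MA. Both were picked for a large fall. With the methods' t-test the calls of GF14B were lost in all 3 comparisons (adjusted p of 0.016 against PMA, 7.7e-03 against MA and 7.8e-03 against SCP), and that against PMA also when only the compared stages were fitted (6.9e-03).

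A few homologues peaked before TPA. PCNA (LOC_Os02g56130), the sliding clamp of DNA replication, was highest in PMA, with 942, 768 and 1624 there, 381, 397 and 408 at MA, 96.2, 84.9 and 53.5 at SCP, and 37.8, 43.4 and 38.5 at TPA. TPA was 26.5-fold under PMA (adjusted p of 9.2e-07) and not called against SCP (1.91-fold, adjusted p of 0.020). LOC_Os05g46350 had the widest margin of the 14 genes with a peak in PMA, with 152, 291 and 355 at PMA against 22.5, 24.3 and 21.1 at MA, 38.0, 41.9 and 89.2 at SCP and 31.0, 48.6 and 33.1 at TPA. The 2 loci next to it in that order, LOC_Os02g05620 and LOC_Os09g37910, are those described above among the genes lower in TPA.

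The peak in MA was found in 3 genes. LOC_Os05g40250 was seen in no other stage. It had 107, 108 and 89.2 at MA, against 4.37, 4.36 and 4.41 at PMA, 4.32, 4.33 and 4.35 at SCP and 4.40, 4.42 and 4.43 at TPA. TPA was at least 10.1-fold under MA (adjusted p of 3.4e-11). LOC_Os05g16250 was dimmer, with 49.4, 42.0 and 45.7 at MA and a mean of 17.8 at PMA, 9.91 at SCP and 7.31 at TPA. The gene of an NAD-dependent epimerase or dehydratase (LOC_Os03g17000) had 4461, 4820 and 4732 at MA and was expressed in every stage, with 995 ± 209 at PMA, 1871 ± 118 at SCP and 1192 ± 155 at TPA. Whether the change of person at MA bears on these 3 peaks cannot be told apart from the stage.

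The peak in SCP was found in 11 genes. PMR5 (LOC_Os12g05080), named after a powdery mildew resistance gene of Arabidopsis, had 1748, 1707 and 3098 at SCP, against 22.1, 21.2 and 22.3 at PMA, 26.5 ± 3.75 at MA and 44.3, 23.2 and 100 at TPA. TPA was 44.7-fold under SCP (adjusted p of 1.1e-05). LOC_Os08g06490 had 349, 344 and 223 at SCP and 8.72, 8.74 and 8.88 at TPA, at least 29.9-fold lower in TPA (adjusted p of 3.5e-08), and its means of 9.68 at PMA and 9.32 at MA are also at background. LOC_Os03g51760 had 144, 163 and 264 at SCP and 4.83, 5.03 and 4.87 at TPA, at least 18.4-fold lower in TPA (adjusted p of 3.1e-06). These steps stand in the stage in which the tapetum genes were at their highest, and the part of the tapetum in them was not tested. LOC_Os12g10720 was the bright one, with 5078, 4886 and 5345 at SCP and means of 365 at PMA, 734 at MA and 598 at TPA.

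**Figure D4:**
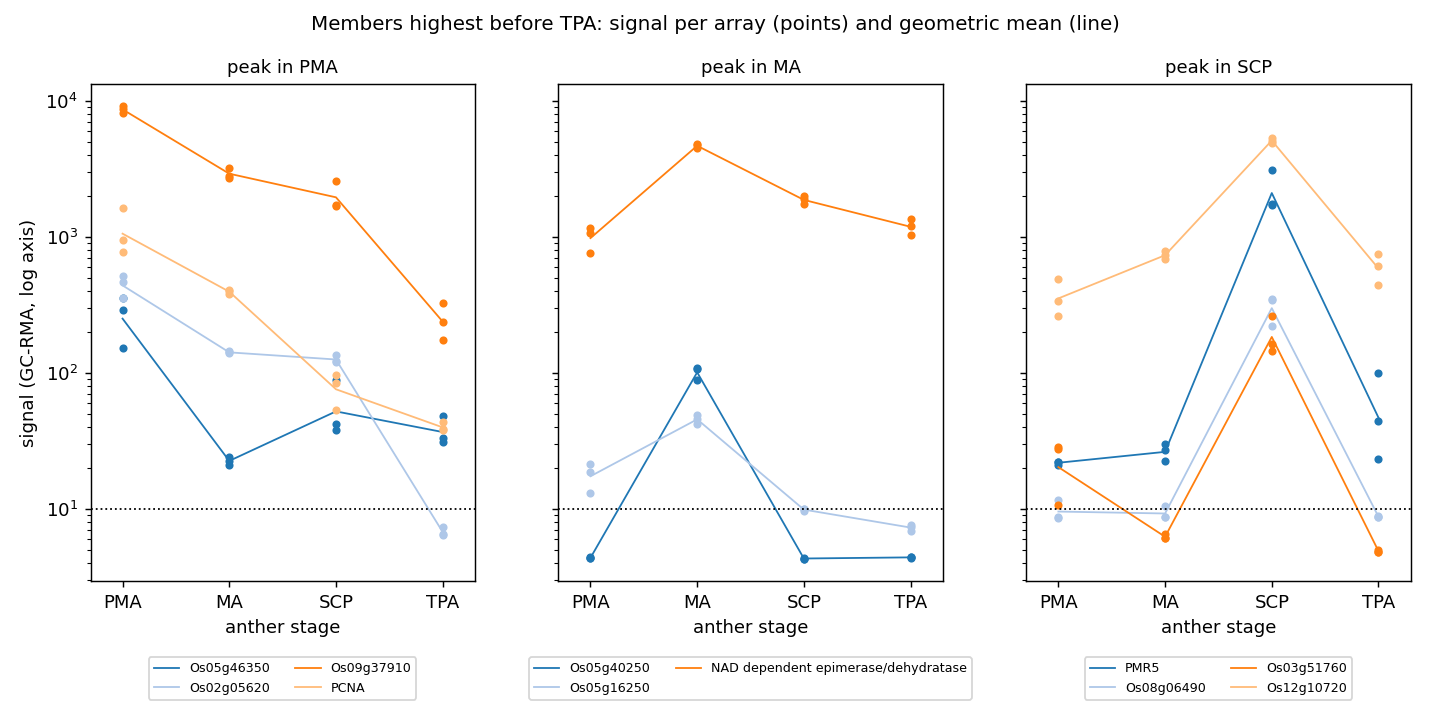
Signal on a log axis of the homologues with the widest margin of a peak in PMA, MA or SCP (panels from left to right), by anther stage. Points are arrays, lines join geometric means, and the dotted line is the background limit of 10. LOC_Os05g40250 stands over 10 at MA alone, with a mean of 101, and PMR5 has a mean of 2184 at SCP and of 56.0 at TPA.

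The brightest homologues in TPA were mostly genes bright throughout. After LOC_Os05g20570 came LOC_Os06g47230, with 17678 ± 767 at TPA after 27558 ± 1818 at PMA, 25109 ± 303 at MA and 22953 ± 447 at SCP. It was lower in TPA by less than 2-fold. LOC_Os07g48780 averaged 15818 ± 2058 at TPA, against 7101 ± 1541 at SCP (2.25-fold, adjusted p of 6.2e-04), and its calls against PMA and SCP were lost with quantile normalization, at 0.98 on the log2 scale in both, and that against PMA also without PMA replicate 1 (0.93). LOC_Os03g59220 had 12978, 12286 and 12708 at TPA against 2174, 2186 and 2255 at SCP (5.74-fold, adjusted p of 1.3e-06). ADF1 and an ADP-ribosylation factor completed the first 6.

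The steadiest homologues among those over 10 in every stage had a range of at most 0.30 on the log2 scale over the 4 stage means. LOC_Os02g52290 led them, with means of 7918 ± 1012 at PMA, 7554 ± 251 at MA, 7984 ± 304 at SCP and 7415 ± 489 at TPA. LOC_Os10g23220, LOC_Os05g09370, LOC_Os09g31970 and ADF2 followed. So small a range lies under the 2-fold limit, and by this choice no comparison of TPA could be called in them. Their single arrays could still differ, and TPA arrays of LOC_Os05g09370 were as far apart as 377, 464 and 165.

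By function, the named homologues fell into small groups that were set from gene names with earlier results of these data known, and their counts are descriptions. Part of the names came from lists of genes changing over these stages, so the counts of called genes are partly set by the naming. Beside the counts of this and the following groups stand the shares of the rice probe sets over 10 in a stage. Of these, 16.4 to 17.1% were higher and 29.9 to 32.0% lower in TPA in the 3 comparisons. Many of the group counts lie near these shares. In the group of DNA and chromatin, 6 of 9 were lower and 0 higher in TPA than in PMA, 4 lower and 1 higher than in MA, and 3 lower and 2 higher than in SCP. ORC2 (LOC_Os03g08640), a subunit of the origin recognition complex that marks replication start sites, had 339, 317 and 315 at PMA, 311, 375 and 349 at MA, 257, 234 and 225 at SCP, and 34.2, 41.7 and 50.7 at TPA (5.72-fold under SCP, adjusted p of 4.2e-07). RPA2C (LOC_Os06g47830), a subunit of the single-strand binding protein RPA, had 66.6, 82.2 and 24.5 at TPA against 282, 327 and 345 at SCP (6.19-fold lower, adjusted p of 4.7e-04). With the methods' t-test its calls were lost against PMA, MA and SCP (adjusted p of 0.0155, 9.8e-03 and 0.020). Those against PMA and SCP were also lost when only the compared stages were fitted (6.5e-03 and 0.017). ORC2, RPA2C and PCNA are parts of the replication machinery, in which not every member fell. RPA14 (LOC_Os01g14980), another RPA subunit, named after its values were seen, had 3147, 3181 and 2138 at TPA against 1484, 1399 and 1079 at SCP (2.12-fold higher, adjusted p of 5.8e-04), and was not called against PMA or MA. ADA2 (LOC_Os03g53960), a co-activator that works with histone acetyltransferases, was 2.31-fold lower in TPA than in SCP. At a common median it was under the fold limit (-0.60 on the log2 scale). JMJ705 (LOC_Os01g67970), a histone demethylase, went the other way, with 390, 431 and 301 at TPA against 141, 127 and 82.7 at SCP (3.25-fold higher, adjusted p of 2.1e-04), and its TPA arrays overlapped those of PMA (261, 365 and 263). Its call against MA was lost without MA replicate 3 (adjusted p of 5.0e-03). With the methods' t-test the calls of JMJ705 against MA and SCP were lost (adjusted p of 6.2e-03 and 0.0115). The group's median log2 difference was -1.74 for TPA minus PMA, -1.46 for TPA minus MA and -0.57 for TPA minus SCP, and scaling to a common median turned the last to 0.04.

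Genes of energy and carbon metabolism moved in both directions in TPA. Of 12, 4 were higher and 1 lower in TPA than in PMA, 1 higher and 2 lower than in MA, and 5 higher and 3 lower than in SCP. The median log2 difference was 0.66 for TPA minus PMA, 0.28 for TPA minus MA and 0.39 for TPA minus SCP, with the same sign under both other scalings. With quantile normalization 2 were higher and 4 lower than in SCP. At a common median 8 were higher and 1 lower than in PMA, 5 and 1 than in MA, and 6 and 3 than in SCP. Subunits of the mitochondrial respiratory chain and ATP synthase were bright. The ATP synthase epsilon chain (LOC_Os08g15170) had 13987, 12440 and 11161 at TPA against 5582, 5627 and 5579 at SCP (2.23-fold, adjusted p of 2.6e-06). Subunit 9 of the cytochrome b-c1 complex (LOC_Os05g33210) had 12659, 11680 and 10220 at TPA against 5307, 5595 and 5629 at SCP (2.08-fold, adjusted p of 7.4e-06). Quantile normalization brought both under 2-fold, at 0.95 and 0.85 on the log2 scale, and the second also fell under 2-fold without TPA replicate 1 (0.99). Against PMA it was called only without PMA replicate 1 (1.01) or TPA replicate 3 (1.02), among the arrays left out. At a common median it was called against PMA too (1.67), and the epsilon chain against PMA and MA (1.36 and 1.003).

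The chaperones were lower in TPA. All 3 were called lower than in MA and in SCP, and 2 of 3 lower than in PMA. HSP82 (LOC_Os08g39140), a cytosolic chaperone of the Hsp90 class, had 2551, 2611 and 2095 at TPA against 7419, 7666 and 8800 at SCP (3.3-fold lower, adjusted p of 6.4e-07). Calreticulin (LOC_Os04g32950), a calcium-binding chaperone of the endoplasmic reticulum, had 1244, 1463 and 771 at TPA against 5397, 5148 and 4718 at SCP (4.54-fold lower, adjusted p of 1.6e-05). With the methods' t-test this call was lost (adjusted p of 6.9e-03). BIP1 (LOC_Os02g02410), the Hsp70 of the same compartment, was uneven in TPA, with 1626, 2591 and 586 against 6512, 6088 and 5598 at SCP. Its call against SCP (adjusted p of 2.8e-03) was lost with adjusted p of 5.1e-03 to 0.012 when any array of PMA, MA or SCP or TPA replicate 1 was left out, and that against PMA was gained without TPA replicate 2 (-2.41 on the log2 scale) or 3 (-1.33), while no TPA array overlapped an earlier one. The calls of BIP1 against MA and SCP were lost with the methods' t-test (adjusted p of 0.030 and 0.047). They were also lost with only the compared stages fitted (0.022 and 0.041).

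Genes of vesicle traffic were mostly level or lower in TPA. Of 9, 0 were higher and 4 lower in TPA than in PMA, 0 higher and 4 lower than in MA, and 1 higher and 5 lower than in SCP. Beside the reticulon gene, the ras-related protein (LOC_Os05g44050), a small GTPase, had 3002, 3017 and 3239 at TPA against 8988, 8603 and 10218 at SCP (3.00-fold lower, adjusted p of 9.2e-07). SCAMP1 (LOC_Os07g37740), a membrane protein of secretory carriers, had 1010, 817 and 836 at TPA against 1833, 1730 and 1767 at SCP (2.01-fold lower, adjusted p of 5.9e-06), at the edge of the fold limit. The ADP-ribosylation factor (LOC_Os07g12170), a GTPase of coat assembly, was the 1 that was higher, with 13123, 12508 and 14711 at TPA against 3937, 3761 and 4997 at SCP (3.20-fold, adjusted p of 1.2e-06). With arrays at a common median the counts against SCP were 1 higher and 1 lower, and the ras-related protein and SCAMP1 were then 0.97 and 0.39 lower on the log2 scale, under the fold limit. SCAMP1 was also under it without SCP replicate 1 (-0.98), TPA replicate 2 (-0.95) or TPA replicate 3 (-0.97), and was called against PMA without TPA replicate 1 (-1.04).

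In translation, transcription and proteolysis no member was higher in TPA than in any earlier stage by the limits used. Ribosomal protein L13 (LOC_Os03g54890) stepped down at each stage, with 7594 ± 518 at PMA, 4820 ± 178 at MA, 2103 ± 290 at SCP and 917 ± 106 at TPA. Ribosomal protein S17 (a probe set that the sources place at different loci) dropped between MA and SCP and then held, with 8151 ± 499 at MA, 2869 ± 234 at SCP and 2473 ± 410 at TPA. Of 5 genes of transcription, 3 were lower in TPA than in PMA, 2 lower than in MA and 3 lower than in SCP. OsC3H14 (LOC_Os02g10080), a CCCH zinc finger protein, had 162, 141 and 166 at TPA against 443, 405 and 409 at SCP, after a peak of 1417 ± 132 at PMA. OsMADS18 (LOC_Os07g41370), a MADS-box factor of flower development, had 563, 795 and 528 at TPA against 1625, 1604 and 2374 at SCP (2.97-fold lower, adjusted p of 1.4e-04). The transcription elongation factor 1 gene (LOC_Os02g04160) was 2.03-fold lower in TPA than in SCP, a call lost without SCP replicate 1 or 3 or TPA replicate 1 or 2 (adjusted p of 6.1e-03 to 7.2e-03). NFYC4 (LOC_Os06g45640), a subunit of the CCAAT-binding factor, had 142, 281 and 34.4 at TPA against 435, 423 and 511 at SCP, and was not called (adjusted p of 0.019). Without TPA replicate 2 it was called, at -2.70 on the log2 scale (adjusted p of 2.4e-03), and against PMA it was called without TPA replicate 2 (-2.90) or 3 (-1.38). At a common median 0 of the 5 genes of transcription and 0 of the 2 of translation were called lower in TPA than in SCP.

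Of 6 genes of ubiquitin and proteolysis, 3 were lower in TPA than in PMA, 2 lower than in MA and 2 lower than in SCP. FACE1 (LOC_Os02g45650), a protease that trims prenylated proteins, had 266, 328 and 271 at TPA against 779, 779 and 764 at SCP (2.70-fold lower, adjusted p of 6.1e-05), and its call against PMA was lost without PMA replicate 1 (-0.90 on the log2 scale). The aspartic proteinase gene oryzasin-1 (LOC_Os05g49200) was low throughout, with 21.4 ± 1.75 at TPA and 90.9 ± 15.6 at SCP (4.22-fold lower, adjusted p of 3.8e-04). Its call against PMA was lost when any array but PMA replicate 1 and MA replicate 2 was left out (adjusted p of 5.9e-03 to 0.018). APC11 (LOC_Os02g47870), the RING subunit of the anaphase-promoting complex, had 543, 538 and 471 at TPA against 1687, 1398 and 1060 at PMA (2.63-fold lower, adjusted p of 8.1e-05). The proteasome subunit PBD1 (LOC_Os03g48930) stayed within 2-fold in each comparison of TPA, with 2492 ± 74.8 at TPA and 3505 ± 489 at SCP. At a common median the counts of lower genes were 0 against PMA, 1 against MA and 1 against SCP. The group's median against MA, -0.30, turned to 0.35. FACE1 was then under the fold limit against PMA and SCP (-0.36 and -0.82 on the log2 scale).

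In signalling, CDKF;4 was the only 1 of 6 called higher in TPA, in all 3 comparisons, while 3 were lower than in PMA, 3 lower than in MA and 2 lower than in SCP. RACK1A (LOC_Os01g49290), a scaffold protein that also sits on the ribosome, had 740, 898 and 735 at TPA against 1931, 1854 and 2170 at SCP and 4896 ± 379 at PMA (2.52-fold under SCP, adjusted p of 3.0e-06). CIPK23 (LOC_Os07g05610), a kinase that acts with calcium sensors, had 468, 463 and 520 at TPA against 1512, 1790 and 1373 at PMA (3.21-fold lower, adjusted p of 5.7e-07). Against SCP it was 1.99-fold lower, just inside the limit, and was called without SCP replicate 3 (-1.003 on the log2 scale) or TPA replicate 3 (-1.05). At a common median RACK1A was no longer called against SCP, and CIPK23 no longer against PMA or MA. The 3 genes of the cytoskeleton were ADF1, ADF2 and TubA (LOC_Os11g14220), an alpha-tubulin, which had 11443 ± 752 at TPA and 15741 ± 782 at SCP, lower by 0.46 on the log2 scale.

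**Figure D5:**
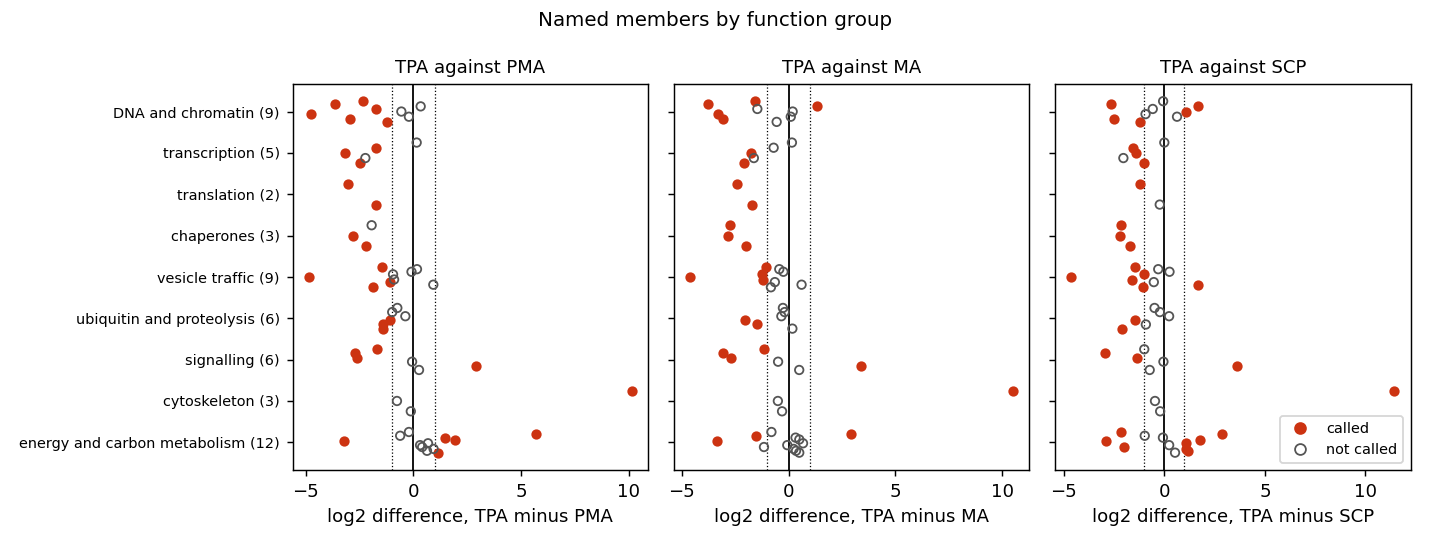
Log2 difference of TPA minus PMA, MA and SCP (panels from left to right) for the named homologues, in rows by function group with the number of genes in brackets. Filled points were called, open points were not, and dotted lines mark a 2-fold change. The 3 chaperones lie left of zero in every panel, and ADF1 is the point farthest to the right.

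The calls were also counted by the level of a gene and by the strength of its match to maize, with no test between the classes. When the 308 were put in 4 equal classes of 77 by their geometric mean over all 12 arrays, 17 of the dimmest class (4.71 to 192) were higher in TPA than in every other stage, then 10, 5 and 3 in the brighter classes. The numbers lower in TPA than in every other stage were 12, 19, 11 and 12 from the dimmest class to the brightest. The median range over the stages was 2.45 on the log2 scale in the dimmest class and 1.17 in the brightest (2304 to 23010). The classes were made from the same 12 arrays, so a gene bright in TPA alone tends to fall in a dim class. These differences between the classes are thus partly set by how they were made. Of the 186 genes with an e-value of 1e-40 or less, 17 were higher in TPA than in every other stage (9.14%) and 34 lower (18.3%), and of the other 122 it was 18 (14.8%) and 20 (16.4%). The 241 homologues of lily generative cell genes, 30 of which are also maize homologues, had 19 higher (7.88%) and 62 lower (25.7%) in TPA than in every other stage, with a median TPA signal of 696. The difference between the lists was not tested.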

How the data were processed

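The authors extracted RNA from whole anthers, labelled it, scanned the arrays with GCOS and computed GC-RMA values in ArrayAssist, together with arrays of other tissues not analysed here. GC-RMA corrects background by probe GC content, quantile normalizes the arrays and summarises each probe set. The deposited values are these intensity values on the linear scale. Probe sets ending in _s_at, _x_at or _a_at (42 members) can detect related transcripts. Beside the genes marked above, these include TubA, OsC3H14, LOC_Os06g47230, LOC_Os10g23220 and LOC_Os12g10720. All 12 columns were used.

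Of 57381 probe sets, 187 (array controls and reporter genes) were left out, and 57194 were log2-transformed and fitted by limma 3.58.1 in R 4.3.3 (lmFit and eBayes, 8 residual degrees of freedom). The number of arrays limits the precision. The script was tested on simulated data. Members came from the study's supplementary lists. Names came from the reference table (48) and the supplements (27), 274 members matched 1 reference gene, and groups were set by hand from these names. The supplement names came from the study's lists of genes changing over the anther stages or preferential to pollen mother cells. A gene that changes over the stages could thus be named, and grouped, more readily. Members and lists were chosen with earlier results of these data known.

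Genes named are the 12 called higher and the 12 called lower in TPA than in each other stage that rank first by the smallest of their 3 differences, up to 4 with the widest margin of a peak in PMA, MA and SCP, the 6 brightest in TPA, the 5 steadiest, those over 20 in TPA and at or under 10 before, and up to 4 per group with the lowest adjusted p in TPA against SCP. TubA, RPA14 and the genes of the closing observations were added after their values were seen. Replicate numbers were not shown to pair the arrays across stages. Alternatives were the methods' one-way ANOVA with an equal-variance test per pair, 2 other scalings, other filters and limits, a replicate block, and leaving out each array.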

Additional observations from a re-analysis of the deposited data

How the results depend on the processing

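The direction of the list as a whole depended on the scaling. With arrays at a common median, 99 homologues were higher and 59 lower in TPA than in PMA, 90 were higher than in MA, 51 lower than in SCP, 67 higher and 33 lower than in each other stage, and 67 peaked in TPA. The median log2 differences were then 0.41 for TPA minus PMA, 0.38 for TPA minus MA, 0.29 for TPA minus SCP, 0.054 for MA minus PMA and -0.063 for SCP minus MA. Quantile normalization gave medians of -0.23 for TPA minus SCP and -0.13 for SCP minus MA. The methods' t-test, which uses each gene's own spread, gave 32 higher and 40 lower in TPA than in PMA, 36 and 42 than in SCP, 19 and 28 than in each other stage, and 7 higher and 7 lower in MA than in PMA. Fitting only the compared stages, with fewer arrays, gave 59 lower in TPA than in PMA and 55 lower than in SCP.

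A limit of 4-fold left 108 genes varying over the stages, 28 higher and 52 lower in TPA than in PMA, 23 and 49 than in MA, 26 and 39 than in SCP, 18 and 23 than in each other stage, 4 higher and 1 lower in MA than in PMA, 9 higher and 7 lower in SCP than in MA, and 1 peak in PMA, 1 at MA, 5 at SCP and 18 at TPA. Keeping e-values of 1e-40 or less, which keeps fewer genes, left 119 varying, 30 higher and 60 lower in TPA than in PMA, 26 and 56 than in MA, 28 and 54 than in SCP, 17 and 34 than in each other stage, 8 higher in MA than in PMA, 179 over background in PMA, 178 at MA, 179 at SCP and 176 at TPA, and 1 peak in MA and 17 at TPA. Its medians were -0.37 for TPA minus PMA, -0.40 for TPA minus SCP, -0.048 for MA minus PMA and -0.036 for SCP minus MA. Only probe sets over 10 gave -0.36 for TPA minus PMA, -0.31 for TPA minus MA, -0.043 for MA minus PMA and -0.13 for SCP minus MA. Without probe sets that may cross-hybridise the medians were -0.24 for TPA minus MA, -0.0083 for MA minus PMA and -0.12 for SCP minus MA.

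Leaving out 1 array at a time gave 9 to 19 genes lower in MA than in PMA, and medians of -0.40 to -0.31 for TPA minus PMA, -0.31 to -0.23 for TPA minus MA, -0.38 to -0.31 for TPA minus SCP, -0.039 to -0.006995 for MA minus PMA and -0.11 to -0.085 for SCP minus MA. Other counts stayed within 1.5 times. With the replicate number as a block, 195 genes varied, 56 were higher and 88 lower in TPA than in PMA, 52 and 86 than in MA, and 56 and 80 than in SCP. Same-numbered arrays deviated together with correlations of -0.064 to 0.10, and 5 of 12 arrays correlated best with their own number. Of the calls of named genes in TPA, the methods' t-test lost 39, fitting only the compared stages lost 23, the common median lost 20 and gained 9, quantile normalization lost 10 and gained 2, the block lost 3, and none turned direction under the alternatives run. The number of arrays limits the precision, and signals near 10 give only bounds.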

Other observations

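The genes of this paragraph were chosen after their values were seen. Among named homologues in no function group, 0 of 20 were higher and 5 lower in TPA than in SCP. Of the rice probe sets over 10 in a stage 16.4% were higher and 29.9% lower. The counts of the 20 depended on the scaling, with 4 higher and 3 lower at a common median and 0 and 5 with quantile normalization. The gene of a GHMP kinase, a family of small-metabolite kinases, averaged 194 at PMA, 889 at MA, 1730 at SCP and 104 at TPA, and was called lower in TPA than in MA and SCP (limma adjusted p of 2.6e-05 and 4.6e-06). That of a carotenoid cleavage dioxygenase was lower in TPA than in every other stage, with means of 755 at PMA, 724 at MA, 657 at SCP and 191 at TPA. The gamma-glutamyl hydrolase gene averaged 1188 at PMA, 1178 at MA, 2972 at SCP and 5041 at TPA, and was called higher in TPA than in PMA and MA (adjusted p of 2.2e-06 and 2.3e-06). In carbon metabolism, Cyt-RPEase, a ribulose phosphate epimerase, peaked in SCP, with means of 1549 at PMA, 2299 at MA, 5763 at SCP and 1333 at TPA. SDH3-2, a subunit of succinate dehydrogenase, averaged 252 at PMA, 672 at MA, 277 at SCP and 969 at TPA, and was called higher in TPA than in PMA and SCP (adjusted p of 6.7e-06 and 1.3e-05).

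Of the 308 homologues, 2 were called in opposite directions in the comparisons of TPA. LOC_Os08g27050 averaged 217 at PMA, 173 at MA, 2413 at SCP and 826 at TPA, and LOC_Os04g49130 averaged 387 at PMA, 146 at MA, 17.5 at SCP and 57.6 at TPA. The 8 homologues at or under 10 in every stage included DI19-2, with means of 8.26 at PMA, 8.22 at MA, 9.34 at SCP and 9.20 at TPA, and a retrotransposon protein gene with 4.71 at PMA, 4.69 at MA, 4.66 at SCP and 4.76 at TPA.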
